A study of Mus musculus with 12 samples.

Results

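The organic ion and drug transporters are 59 mouse genes of the SLC22, SLCO, ABCB, ABCC and ABCG families. They were chosen by gene name on the array (names beginning Slc22a, Slco, Slc47a, Abcb, Abcc or Abcg followed by a number). The name rule used no measured values, but it was set with earlier results of these data known. No gene was listed under an Slc47a name. They were read by 91 of the 41174 gene probes, and 26 of them by more than 1 probe. The RNA came from a tubule suspension of mouse kidney. A large-particle sorter divided it by green fluorescence into EGFP+ tubules, labelled as distal convoluted tubule (DCT), and EGFP- tubules, and ALL was the total suspension. Each fraction was taken from the same 4 mice, mice 1 and 3 female and mice 2 and 4 male, giving 12 one-colour arrays with n = 4 mice per fraction. The sources used here give no strain, no age and no promoter for EGFP. What all 3 fractions share is therefore known only as far as the tissue and the EGFP label.

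The distal convoluted tubule is a short stretch of the nephron that reabsorbs sodium chloride and handles magnesium and calcium. Secretion of drugs, toxins and metabolic waste is known mainly from the proximal tubule. There, SLC22 carriers of the basolateral membrane take organic anions and cations up from blood, and MATE exchangers and ATP-driven pumps of the ABC families pass them into urine. Organic anion transporting polypeptides (OATPs, SLCO genes) carry steroid conjugates, bile salts, prostaglandins and thyroid hormones without ATP. Several ABC members sit in mitochondria or lysosomes, and Abcc8 and Abcc9 encode sulfonylurea receptors, which are potassium channel subunits and carry no drug. Expression of several of these genes in mouse kidney is known to differ between the sexes.

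A level is the log2 of the background-subtracted signal of a gene's probe minus the same array's 75th percentile of that signal, so that 0 marks the upper quartile of the array. Differences between levels are on the log2 scale, given with the standard error of the fit (SE). A gene counts as higher or lower where the adjusted p of limma (Benjamini-Hochberg over all 17070 genes tested) lay under 0.05. A gene was tested where 4 or more of the 12 arrays read one of its probes well above background. Of the 59 members, 43 passed this filter, 12 were not well above background on any array, and 4 were so on 1 to 3 arrays only. The 16 untested genes were Abcb5, Abcb11, Abcc12, Abcg3, Abcg4, Abcg8, Slc22a3, Slc22a14, Slc22a20, Slco1a5, Slco1b2, Slco1c1, Slco5a1, Slco6b1, Slco6c1 and Slco6d1. Of the 43 tested genes, 30 were well above background on all 4 EGFP+ arrays, 8 on 1 to 3 of them, and 5 on none.

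The fractions were described with marker genes. These lists were written with earlier results of these data known, so they are no independent check of the labelled identity. Of 14 DCT markers, 13 were higher in EGFP+ than in EGFP- (median difference 4.18), and of 17 tested proximal tubule markers 16 were lower (median -4.75). The summed linear level of 10 proximal tubule markers measured on every array lay between 10.4 and 18.8 in EGFP+, between 200 and 294 in ALL and between 227 and 306 in EGFP-. In EGFP+ it was thus 4.59%, 6.99%, 4.13% and 4.84% of the EGFP- value in mice 1 to 4, and 16 of the 17 markers were well above background on all EGFP+ arrays. The 10 endothelial markers summed to between 6.09 and 8.40 in EGFP+ and to between 60.6 and 99.8 in EGFP-. Of 8 thick ascending limb markers, 6 were higher in EGFP+ than in EGFP- and 1 was lower (median difference 1.72). The sum of 7 of them lay between 29.0 and 38.7 in EGFP+ and between 41.1 and 48.7 in EGFP-. That sum lacks Umod (mean level 7.84 in EGFP+ and 5.91 in EGFP-), because an ALL spot was left out. It holds Cldn10, the lower marker (-0.46 in EGFP+ and 4.59 in EGFP-). The array quartile that sets 0 ranged from 922 to 2270 signal units. In such mixed samples, fewer cells of a type and less RNA per cell cannot be told apart. The part of residual proximal tubule or vessel RNA in the differences below was not tested.

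In EGFP+ tubules 29 of the 43 tested transporters were lower than in EGFP- tubules, 6 were higher and 8 did not pass the threshold. The 29 include Abcb1a, Abcc6, Abcc9, Abcg5 and Slco1a4, the 5 that were well above background on no EGFP+ array. Those 5 passed the filter only through ALL and EGFP- arrays, so a lower level in EGFP+ was built into their selection. Their calls add no support to this count or to the counts by family. Over all genes tested, 25.9% were lower and 32.3% higher, with a median difference of 0.11. The same shares are the background for the counts by family given below. The members' median was -3.23, or -2.24 with genes not above background in EGFP+ set at their bound. With another background correction, normexp, which adds an offset to every signal, it was -1.05, and 22 members were lower; the 7 that missed the threshold were Abcb1a, Abcc3, Abcc8, Abcc9, Abcg5, Slco1a4 and Slco4c1. Deficits that stayed past the threshold but shrank more than 1.5-fold were those of Abcc2 (-4.85 with normexp), Slc22a8 (-4.34), Slc22a13 (-3.96), Slc22a19 (-3.06), Slco1a1 (-4.35), Slco2a1 (-4.05), and Abcb1b, Abcb4, Abcc6 and Slco2b1, given below. On the 3 slides, which each held all fractions, the members' median difference was -2.74, -2.91 and -2.96. Slide differences, here and for single genes, compare partly different mice and sexes. On slide 2, EGFP+ came from mouse 3, a female, and EGFP- from mouse 2, a male. Against ALL, 27 members were lower and 7 higher in EGFP+ (24.9% and 30.3% of all genes). These comparisons share the EGFP+ arrays and are not independent. No member passed the threshold between ALL and EGFP-, where 1.39% of all genes were higher and 0.00586% lower in ALL. In that comparison 1 member, Slco4a1, had an unadjusted limma p under 0.05.

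**Figure D1:**
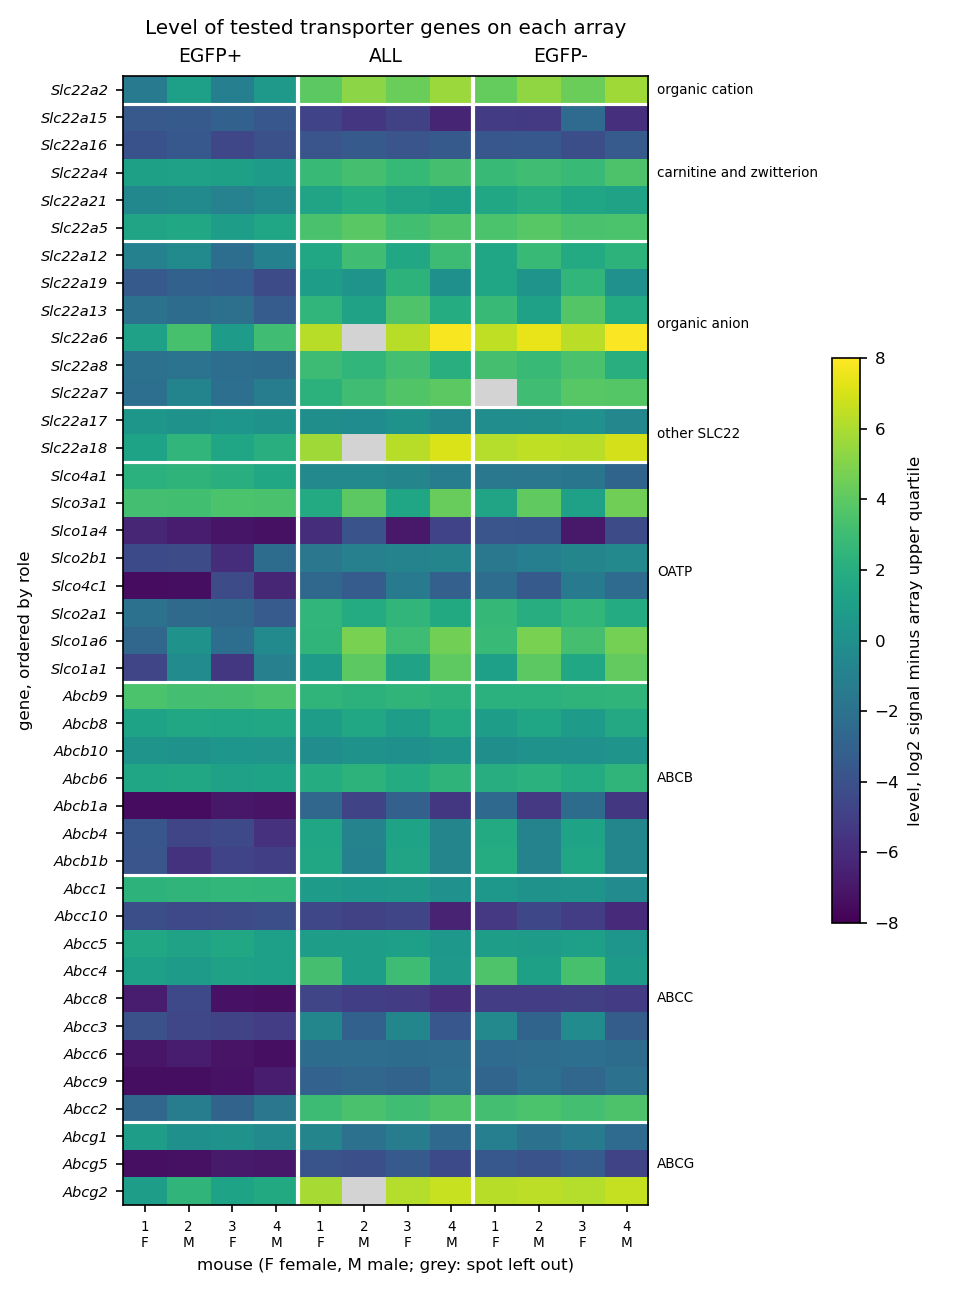
Level (log2 signal minus the array's upper quartile, colour) of 41 of the tested transporter genes (rows, by role) on the 12 arrays (columns, by fraction and mouse). In most rows the EGFP+ cells are darker than the ALL and EGFP- cells of the same gene, and for Slco4a1, Abcc1, Abcg1 and Abcb9 they are brighter; grey cells are spots left out as outliers.

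The 6 genes higher in EGFP+ were Slco4a1, Abcc1, Abcg1, Abcb9, Abcc5 and Slc22a17. The first 30 of the 60 bases of the probes for the genes that the results turn on are shown here because these are the letters that measured them. Positions are those of the files on mm8, and no exon annotation of that build was used.

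Slco4a1 (chr2:180404076-180404135, plus strand): agacgtatattttgcactgaatggtgttta
Abcc1 (chr16:14388036-14388095, plus strand): cctacttatgagcatcgtttcgtggagaag
Slco3a1 (chr7:74157772-74157831, minus strand): ggtgtgaaaacatggaatctgttttatagt
Abcc4 (chr14:117366592-117366651, minus strand): gccagtaaatgatgtagattcgtcctttat
Slco1a1 (chr6:141871298-141871357, minus strand): ccaagttcgagaacgatggagaactgaaaa
Slco1a1, other probe (chr6:141870919-141870977, minus strand): ctgaatttatccttcaatgttggaggtatt

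Slco4a1 encodes OATP4A1, a carrier of thyroid hormones and prostaglandins. Its level in EGFP+ was 2.22, 2.43, 2.11 and 1.55 in mice 1 to 4. In ALL it was -0.45, -0.50, -0.73 and -1.26, and in EGFP- it was -1.59, -1.66, -1.80 and -2.82. Every EGFP+ array lay above every ALL array, and the lowest values of all 3 fractions came from mouse 4. EGFP+ exceeded EGFP- by 4.05 ± 0.29 (SE; 16.5-fold, 95% interval 10.6 to 25.8, adjusted p = 2.68e-07), and by 3.92, 3.77 and 3.86 within the 3 slides. It exceeded ALL by 2.81 ± 0.29 (7.01-fold). Between ALL and EGFP- the difference of 1.23 ± 0.29 had an adjusted p of 0.0823, which became 0.000514 with the mouse as a block and 0.0314 with the slide as a block.

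Abcc1 encodes MRP1, an export pump for glutathione conjugates such as leukotriene C. Its EGFP+ levels were 2.37, 2.48, 2.60 and 2.50, against 0.80, 0.55, 0.66 and 0.08 in ALL and 0.51, 0.24, 0.28 and -0.29 in EGFP-. The 4 EGFP+ arrays agreed within 0.23 of each other and did not overlap with the other fractions. The difference from EGFP- was 2.30 ± 0.19 (4.93-fold, adjusted p = 6.91e-07), and 3 tested probes of the gene gave between 2.30 and 2.33.

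Abcg1, which moves cholesterol out of cells to high-density lipoprotein, had EGFP+ levels of 0.91, 0.06, 0.23 and -0.39. Its EGFP- levels were -1.09, -2.02, -1.35 and -2.43, and the male mice were the lower ones in all 3 fractions. EGFP+ was higher by 1.93 ± 0.43 (3.80-fold, adjusted p = 0.00218), with 2.01, 2.07, 1.58 and 2.05 in the single mice. Abcb9, a lysosomal peptide transporter, was at 3.44, 3.20, 3.30 and 3.40 in EGFP+ and at 2.23, 2.21, 2.41 and 2.44 in EGFP-. That is a difference of 1.01 ± 0.10 (2.01-fold, adjusted p = 4.7e-06).

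The remaining gains were small. Abcc5, the cyclic nucleotide exporter MRP5, was higher by 0.56 ± 0.17 (1.48-fold, adjusted p = 0.0143), in 4 of 4 mice. Without mouse 1 its adjusted p was 0.0672. Slc22a17, the receptor for the iron-carrying protein lipocalin 2, was higher by 0.51 ± 0.18 (1.42-fold, adjusted p = 0.0271), also in 4 of 4 mice. It missed the threshold without mouse 1 (adjusted p = 0.12), without mouse 2 (0.0694), with no filter on dim probes (0.0545), with the mean of its probes (0.0534) and within females (0.075).

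**Figure D2:**
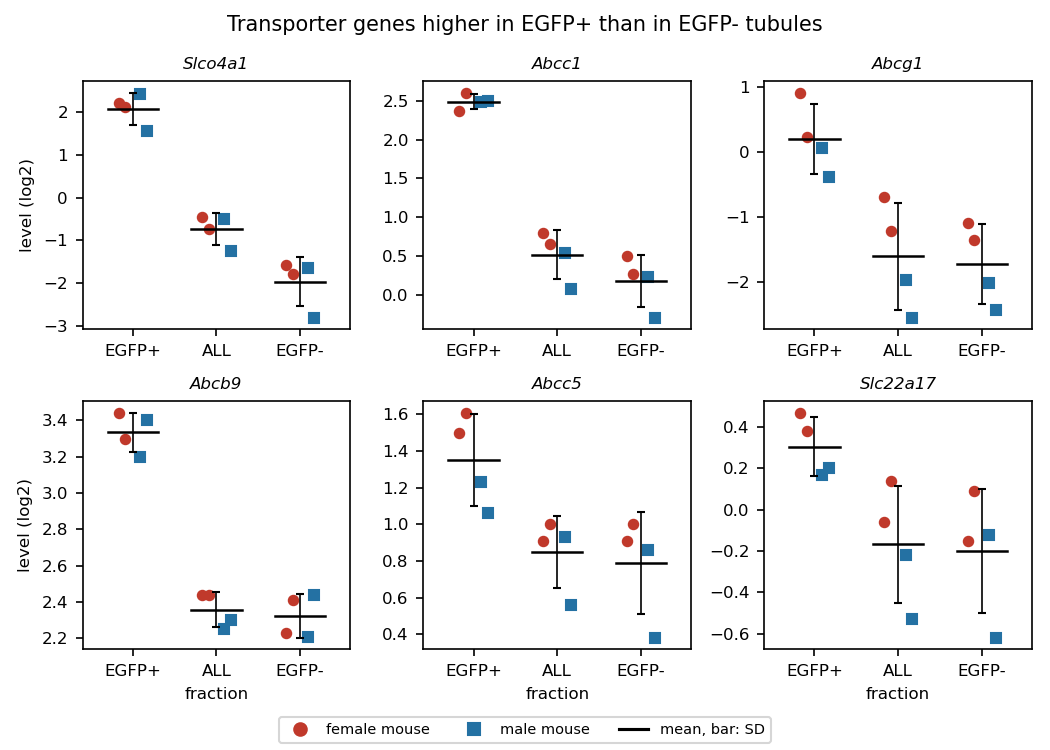
Level (log2, vertical axis) in EGFP+, ALL and EGFP- of the 6 transporter genes higher in EGFP+ than in EGFP-, one point per mouse (red circles female, blue squares male); black lines are the means and bars the SD of 4 mice. For Slco4a1 and Abcc1 all EGFP+ points lie above all others, and for Slc22a17 the gap is small (0.51).

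Organic cation transporters were low in EGFP+. Slc22a2 (OCT2) is an uptake carrier of the basolateral membrane for metformin-like cations. It stood at -1.49, 1.05, -1.11 and 0.63 in EGFP+ and at 4.24, 5.37, 4.42 and 5.70 in EGFP-, a difference of -5.16 ± 0.60 (35.8-fold lower, adjusted p = 1.44e-05). The fractions did not overlap, and the male mice had the higher EGFP+ levels. The share of the proximal tubule markers kept in EGFP+, given above, was likewise highest in a male, mouse 2. Slc47a1 (MATE1), which expels cations into urine, is on the array under an older clone name and so outside the name rule. It was lower by 4.83 on the log2 scale (28.4-fold, difference -4.83 ± 0.42).

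All 6 tested organic anion transporters were lower in EGFP+, with a median difference of -4.87. Slc22a6 (OAT1) and Slc22a8 (OAT3) exchange intracellular dicarboxylates for drugs, urate and hippurate at the basolateral membrane. Slc22a6 was at 1.15, 3.37, 0.80 and 3.09 in EGFP+ and at 6.46, 7.44, 6.34 and 7.88 in EGFP- (difference -4.93 ± 0.65, adjusted p = 6.62e-05). Slc22a8 was at -2.03, -1.93, -2.25 and -2.36 in EGFP+ and at 3.26, 2.77, 3.41 and 2.08 in EGFP- (difference -5.02 ± 0.31, adjusted p = 6.26e-08). Their fractions did not overlap. Slc22a12 (URAT1), which takes urate back from the tubule lumen, was lower by a smaller amount, -3.26 ± 0.48 (adjusted p = 0.000104). The liver and kidney carrier Slc22a7 (OAT2) differed by -5.17 ± 0.44, in 3 mice because its spot in EGFP- of mouse 1 was left out. Slc22a13 (OAT10), an apical exchanger of urate and nicotinate, differed by -4.81 ± 0.59, and Slc22a19 (OAT5) by -4.56 ± 0.60.

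Of the 5 carnitine and zwitterion carriers, 3 were lower in EGFP+ and 2 did not pass the threshold. Slc22a5 (OCTN2), the sodium-driven carnitine carrier, was at 1.32, 1.58, 0.95 and 1.45 in EGFP+ and at 3.49, 3.86, 3.43 and 3.48 in EGFP-. The difference was -2.24 ± 0.18 (4.73-fold lower, adjusted p = 6.38e-07), and EGFP+ kept 22.1%, 20.6%, 17.9% and 24.4% of the EGFP- level. Its neighbours on chromosome 11, Slc22a21 (a carnitine carrier) and Slc22a4 (OCTN1, the ergothioneine carrier), differed by -2.07 ± 0.21 and -2.02 ± 0.19. These 3 genes kept a larger share in every mouse than the proximal tubule marker sum did. Single proximal tubule markers differed by between -5.51 and -2.08, so the smallest marker deficit was close to those of these carriers. Slc22a15, a carrier of zwitterions such as ergothioneine, was well above background on all 4 EGFP+ arrays (-3.56, -3.47, -3.05 and -3.63) and on 2 of 4 EGFP- arrays. Its EGFP- levels were -5.23, -5.27, -2.38 and -5.83, so that mouse 3 stood apart. The difference of 1.25 ± 0.63 had an adjusted p of 0.111, which was 0.00214 without mouse 3 and 0.0396 with the mouse as a block. Against ALL the same gene was higher by 1.92 ± 0.63 (adjusted p = 0.0224). A second tested probe of Slc22a15 had means of -4.89 in EGFP+, -4.99 in ALL and -5.12 in EGFP-. Its difference between EGFP+ and EGFP- was only 0.23. Slc22a16, a carnitine carrier known from testis, differed by -0.36 ± 0.22 (adjusted p = 0.185, or 0.0483 with the mouse as a block). With normexp its difference had the other sign, 0.60 (adjusted p = 0.193). Slc22a18, an imprinted gene related to bacterial drug exporters, was lower by a difference of -4.68 ± 0.34.

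**Figure D3:**
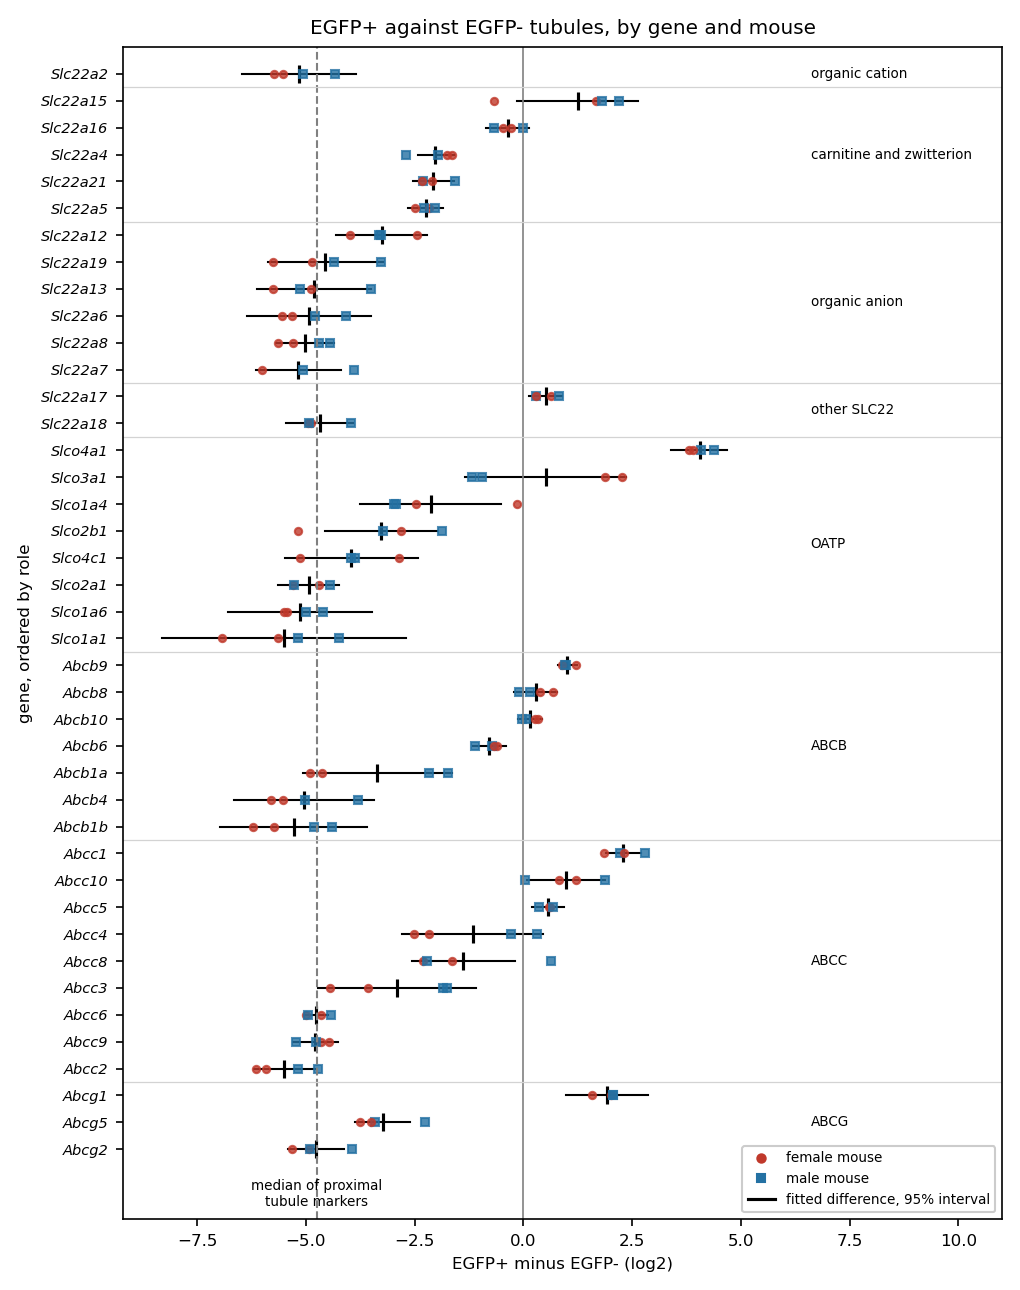
Difference EGFP+ minus EGFP- (log2, horizontal axis) for 41 of the tested transporter genes, by role; points are single mice, the tick and line the fitted difference and its 95% interval, and the dashed line the median of the proximal tubule markers (-4.75). Most organic anion genes lie near that line, Slc22a4, Slc22a21 and Slc22a5 near -2, and Abcb8 and Abcb10 near 0.

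OATP genes split widely, from 4.05 to -5.50, and 6 of the 8 tested were lower. Slco1a1, an apical carrier of steroid conjugates, was at -4.65, -0.28, -5.42 and -1.02 in EGFP+ and at 1.0, 3.94, 1.51 and 4.14 in EGFP-. The difference of -5.50 ± 1.28 (adjusted p = 0.00296) held in each mouse, and the wide SE came with the gap between the sexes described below. With the mean of its 2 tested probes the difference was -3.86 (adjusted p = 0.169). Slco1a6 fell by 5.13 on the log2 scale (SE 0.75), and the prostaglandin transporter Slco2a1 by 4.93 (SE 0.32). A second probe of Slco2a1 gave -2.57. Slco4c1, a digoxin and uremic toxin carrier of the proximal tubule, differed by -3.95 ± 0.69 and cleared background on 1 of the 4 EGFP+ arrays. With normexp its difference was -0.84 (adjusted p = 0.201). A second tested probe of Slco4c1 gave -1.82 and cleared background on 0 of the 4 EGFP+ arrays. Slco2b1 differed by -3.27 ± 0.59, or by -1.54 with normexp (adjusted p = 0.0078). Slco1a4 was not well above background in EGFP+ and was at least 1.46-fold lower there. It passed the filter through 1 ALL and 3 EGFP- arrays only. The limma adjusted p of 0.0274 belongs to its fitted difference of -2.13, not to that bound, and with normexp the difference was 0.43 (adjusted p = 0.551).

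Slco3a1 (OATP3A1, a prostaglandin and thyroxine carrier) was even across mice in EGFP+ at 3.24, 3.18, 3.45 and 3.38. In ALL it was at 1.80 and 1.49 in the females and at 3.97 and 4.31 in the males, and in EGFP- at 1.37 and 1.17 in the females and at 4.11 and 4.55 in the males. EGFP+ thus lay above EGFP- in both females and below it in both males. The pooled difference was 0.51 ± 0.84 (adjusted p = 0.626). Within females, where 7 members in all were higher and 28 lower (29% and 23.6% of all genes), it was 2.07 ± 0.20 (4.21-fold higher in EGFP+, adjusted p = 4.22e-05). Within males, where 6 were higher and 29 lower (26.8% and 26.8% of all genes), it was -1.05 ± 0.20 (2.07-fold lower, adjusted p = 0.00244). Both fits within a sex treat the fractions of a mouse as independent, with 2 mice per sex. The difference between the sexes in this contrast was -3.13 ± 0.25, with an adjusted limma p of 0.0676, and so missed the threshold over 4 mice.

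Of 8 tested ABCB genes, 4 were lower in EGFP+, 1 was higher and 3 did not pass the threshold. Abcb1b (P-glycoprotein) was at -3.80, -5.68, -4.79 and -5.05 in EGFP+ and at 1.93, -0.87, 1.42 and -0.66 in EGFP-. The difference was -5.28 ± 0.77 (adjusted p = 9.96e-05), with 1 of 4 EGFP+ arrays well above background. With normexp it was -2.91 (adjusted p = 0.00479), and the other tested probes of the gene gave -4.55 and -2.25. Abcb4, a phosphatidylcholine exporter, differed by -5.04 ± 0.73, and by -3.04 with normexp (adjusted p = 0.00266). A second probe of Abcb4 was too dim to be tested. Abcb1a, the other P-glycoprotein gene, was not well above background in EGFP+ and was at least 2.53-fold lower there. The limma adjusted p of 0.00295 belongs to its fitted difference of -3.36, not to that bound. With normexp its difference was -0.24 (adjusted p = 0.758). P-glycoprotein is also known from endothelium, and the endothelial marker sums given above were lower in EGFP+ as well.

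The mitochondrial ABCB genes described here were well above background on all EGFP+ arrays. Abcb10, linked to heme synthesis, was at 0.30, 0.16, 0.39 and 0.37 in EGFP+ and at -0.03, 0.20, 0.12 and 0.31 in EGFP-. Its difference was 0.16 ± 0.12 (adjusted p = 0.309, fold interval 0.921 to 1.35). Abcb8 differed by 0.28 ± 0.23 (adjusted p = 0.321, fold interval 0.856 to 1.72). Within females it was higher in EGFP+ by 0.53 ± 0.14 (adjusted p = 0.0134), and within males the difference was 0.03 ± 0.14 (adjusted p = 0.894). Its dependence on sex, -0.51 ± 0.24 as male minus female, had an adjusted p of 0.466. Abcb6, a porphyrin transporter, was lower by a difference of -0.78 ± 0.17 (1.71-fold, adjusted p = 0.00217).

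Of 9 tested ABCC genes 5 were lower and 2 higher. Abcc2 (MRP2), the apical pump for conjugated anions, was at -2.69, -1.25, -2.91 and -1.63 in EGFP+ and at 3.23, 3.46, 3.24 and 3.55 in EGFP-. The difference of -5.49 ± 0.32 (45.0-fold lower, adjusted p = 4.8e-08) was the largest of any member after Slco1a1. Abcc3 (MRP3) differed by -2.90 ± 0.82 (adjusted p = 0.00986), cleared background on 2 of the 4 EGFP+ arrays, and missed the threshold without mouse 3 (adjusted p = 0.0553) and with normexp (-1.02, adjusted p = 0.208). Abcc6, which supports release of ATP from cells, was not well above background in EGFP+ and was at least 7.73-fold lower there (with normexp -1.05, adjusted p = 0.048). The sulfonylurea receptor Abcc9 was at least 7.09-fold lower, and with normexp the difference was -1.01 (adjusted p = 0.0697). Only 1 of the 3 probes of Abcc9 was tested. The others were too dim, with EGFP- means of -6.81 and -6.10. Abcc9 is known from smooth muscle, and the 10 smooth muscle and stroma markers summed to between 3.80 and 5.92 in EGFP+ and between 18.6 and 31.0 in EGFP-, with Pdgfra and Des not well above background in EGFP+. The part of those cells in the difference was not tested. Abcc8 was near background throughout and differed by -1.38 ± 0.54 (adjusted p = 0.0444). Mouse 2, the 1 mouse with an EGFP+ array well above background, went the other way (0.63). Neither sex passed the threshold alone (adjusted p of 0.0622 in females and 0.423 in males), and with normexp the difference was 0.69 (adjusted p = 0.267). Abcc10 (MRP7) was at -4.15, -4.48, -4.30 and -4.14 in EGFP+ and cleared background on 1 of the 4 EGFP- arrays. Its difference of 0.98 ± 0.41 had an adjusted p of 0.056, and 0.0295 with the mouse as a block.

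Abcc4 (MRP4), the apical exporter of cyclic nucleotides and urate, was even across mice in EGFP+ at 1.05, 0.80, 1.15 and 1.02. In ALL it was at 3.27 and 3.06 in the females and at 0.98 and 0.66 in the males, and in EGFP- at 3.57 and 3.32 in the females and at 1.08 and 0.71 in the males. The male EGFP- levels lay around the EGFP+ levels, and the female ones far above. The pooled difference was -1.16 ± 0.74 (adjusted p = 0.198). Within females it was -2.34 ± 0.18 (5.07-fold lower in EGFP+, adjusted p = 1.09e-05), and within males 0.01 ± 0.18 (adjusted p = 0.961). The dependence on sex, 2.35 ± 0.30 as male minus female, had an adjusted p of 0.158.

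In the ABCG family, Abcg2 (BCRP), an apical exporter of urate and drugs, was at 0.94, 2.47, 1.31 and 1.71 in EGFP+ and at 6.25, 6.41, 6.23 and 6.61 in EGFP-. The difference was -4.77 ± 0.29 (27.2-fold lower, adjusted p = 1.66e-07). The sterol exporter subunit Abcg5 was not well above background in EGFP+ and was at least 2.60-fold lower there, but with normexp the difference was 0.11 (adjusted p = 0.852). Abcg1 was the member of this family that was higher.

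Sex was compared on the mean of the 3 fractions of each mouse, 2 males against 2 females. Of 43 tested members, 4 were higher in males (Slco1a1, Slco1a6, Slco3a1 and Slc22a2) and 4 higher in females (Abcb1a, Abcb4, Abcc3 and Abcc4). Over all genes tested, 0.967% were higher and 0.305% lower in males. With any 1 of the 4 mice left out, at most 1 of the 8 kept an adjusted p under 0.05, and without mouse 4 none did. The slides did not hold the sexes evenly, so sex differences within a slide are given beside those of the fit.

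The largest sex difference was that of Slco1a1. Its male-minus-female difference was 3.40 ± 0.13 (10.5-fold higher in males, adjusted p = 0.00483). It was 4.38 in EGFP+, 3.02 in ALL and 2.79 in EGFP-, and 4.37, 2.77 and 2.63 between a male and a female on the same slide. Its other probe was well above background on 6 of 6 male arrays and on 0 of 6 female arrays. That probe read -7.29 and -6.79 in EGFP+ of the females and -1.27 and -1.88 in the males. In EGFP- it read -7.46 and -7.27 in the females and 3.13 and 3.23 in the males. By the brightness of the dimmest probes above background, this is at least 12.6-fold higher in males in EGFP+, 537-fold in ALL and 409-fold in EGFP-. The probes lie side by side on chromosome 6 and gave sex differences of unequal size, 3.40 and 8.97 as means over fractions.

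Within EGFP- alone, 11 members differed between the sexes: 6 higher in males (5% of all genes) and 5 lower (2.46%). The spread in this fit came from 12 arrays in 6 groups of 2, with the 3 fractions of a mouse treated as independent. Slco3a1 was higher in males by 3.06 ± 0.20 (8.34-fold, adjusted p = 0.000126). Abcc4 was lower in males by a difference of -2.55 ± 0.18 (5.85-fold, adjusted p = 0.000184). Both calls held in each of the 10 alternatives run for this comparison, none of which had the mouse as a block. On the 4 mouse means the adjusted limma p was 0.0293 for Slco3a1 and 0.0206 for Abcc4. On slide 3 the male-minus-female difference of these genes was 3.37 and -2.61. In EGFP+ the same differences were -0.07 ± 0.20 and -0.20 ± 0.18, with adjusted p of 0.999 and 0.988.

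The females had higher EGFP- levels in a run of 3 neighbouring genes on chromosome 5. The male-minus-female difference in EGFP- was -2.91 ± 0.26 for Abcb1a, which was not well above background in the males (at least 6.35-fold higher in females). It was -2.44 ± 0.34 for Abcb1b (adjusted p = 0.00578) and -2.29 ± 0.36 for Abcb4 (adjusted p = 0.00901). Abcc3 was likewise higher in females, with a difference of -2.68 ± 0.29 (6.42-fold, adjusted p = 0.00177). The 10 endothelial markers summed to 99.8 and 87.9 in EGFP- of the females and to 64.4 and 60.6 in the males, and 0 of the 10 passed the threshold between the sexes there (median male-minus-female difference -0.69). The 8 podocyte markers summed to 97.9 and 84.3 in the females and to 66.3 and 57.3 in the males, with 1 of 8 lower in males. The part of those cells in the sex differences of these genes was not tested. In EGFP+ none of these 4 passed the threshold, and Abcb1a was not well above background there in either sex. Leaving out a mouse ended the EGFP- call of Abcb1b (adjusted p = 0.0696 without mouse 1, 0.0809 without mouse 4), of Abcb4 (0.162 without mouse 1, 0.0974 without mouse 3, 0.0618 without mouse 4) and of Abcc3 (0.0557 without mouse 1, 0.0617 without mouse 3). With normexp, Abcb1a (-1.38, adjusted p = 0.506) and Abcc3 (-2.19, adjusted p = 0.0922) missed the threshold.

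In males, EGFP- levels were higher for Slc22a6 by 1.26 ± 0.20 (2.40-fold, adjusted p = 0.012), for Slc22a2 by 1.21 ± 0.24 (2.32-fold, adjusted p = 0.0222) and for Slco1a6 by 1.69 ± 0.29 (3.24-fold, adjusted p = 0.0128). Slc22a6 missed the threshold without mouse 1, 3 or 4 (adjusted p from 0.0888 to 0.201), Slc22a2 likewise (0.155 to 0.231), and Slco1a6 without any 1 of the 4 mice (0.06 to 0.129). With normexp their adjusted p were 0.0585, 0.15 and 0.0783. The EGFP- difference of Slco1a1 missed it without mouse 1 (0.0557) and without mouse 4 (0.058). Abcb8 was higher by 0.68 ± 0.14 (adjusted p = 0.0282, or 0.145 with normexp). Within ALL, 7 members were higher in males and 6 lower (6.63% and 2.86% of all genes): the 11 named for EGFP-, with the urate carrier Slc22a12 added in males and Abcg1 in females. Within EGFP+, 5 members were higher in males (Slco1a1, Slco1a6, Slc22a2, Slc22a6 and Abcc2) and 0 lower, against 0.879% and 0.129% of all genes. The male EGFP+ samples were also those with the larger proximal tubule marker sums (6.99% and 4.84% of EGFP-, against 4.59% and 4.13% in females), and the part of that RNA in these 5 differences was not tested. The mean over fractions of Slc22a6 was 1.73 higher in males (adjusted p = 0.0604) and rests on 1 male, because the ALL spot of mouse 2 was left out.

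**Figure D4:**
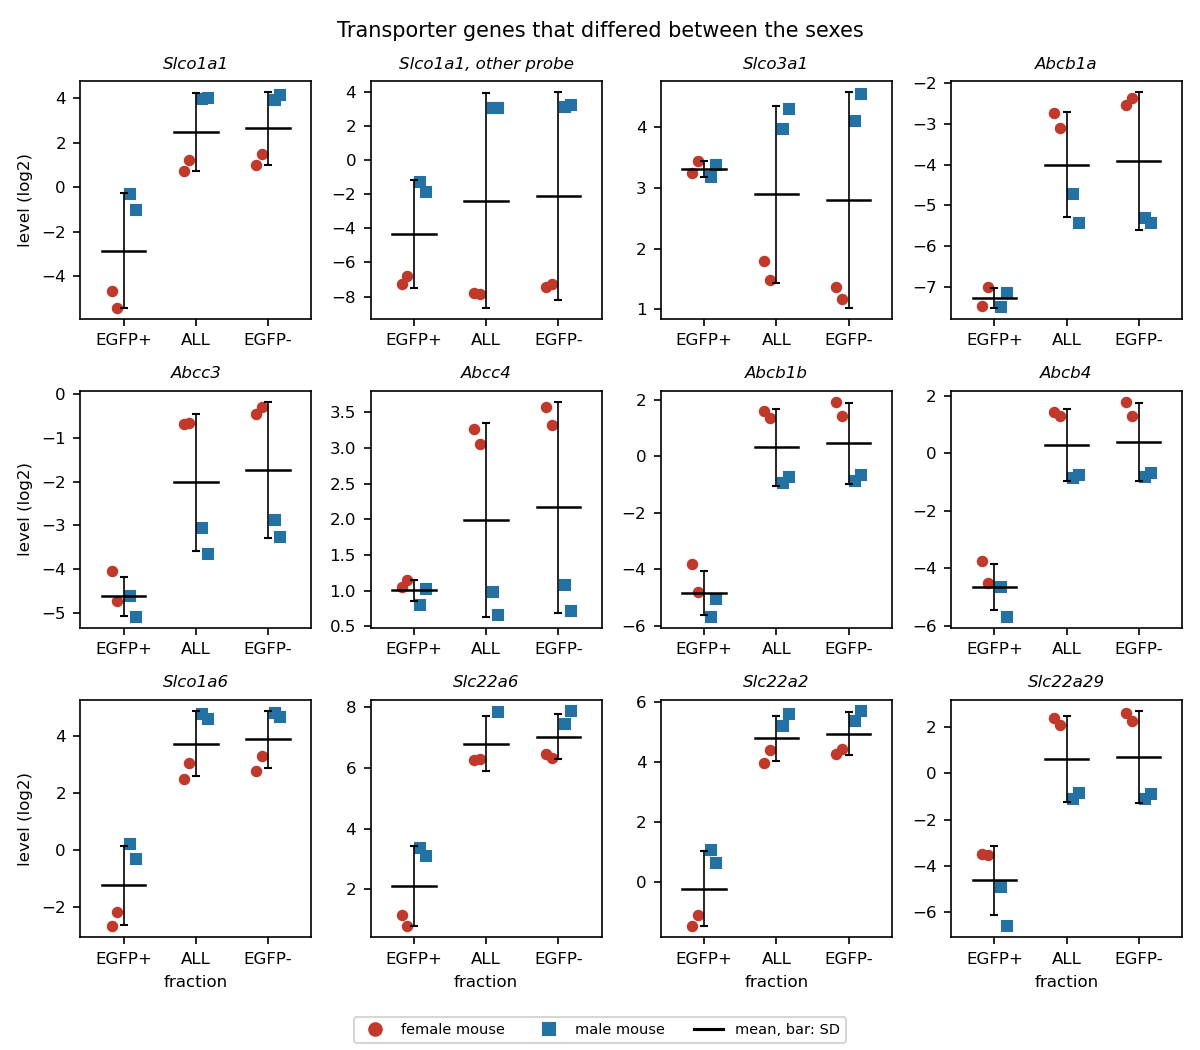
Level (log2, vertical axis) in the 3 fractions of the 10 transporter genes with the largest differences among those past the threshold in a sex test, of the other Slco1a1 probe and of the SLC22 relative Slc22a29; points are single mice (red circles female, blue squares male), black lines the means and bars the SD of the mice measured. Slco3a1 and Abcc4 separate by sex in ALL and EGFP- and meet in EGFP+, whereas Slco1a1 separates in all 3 fractions.

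The dependence of the EGFP+ to EGFP- difference on sex passed the threshold for 0 of 43 members and for 0% of all genes in limma, at 14 members and 2057 of 17069 genes with an unadjusted p under 0.05. The smallest adjusted p among members were 0.0676 for Slco3a1, 0.0864 for Abcb1a and 0.158 for Abcc4.

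**Figure D5:**
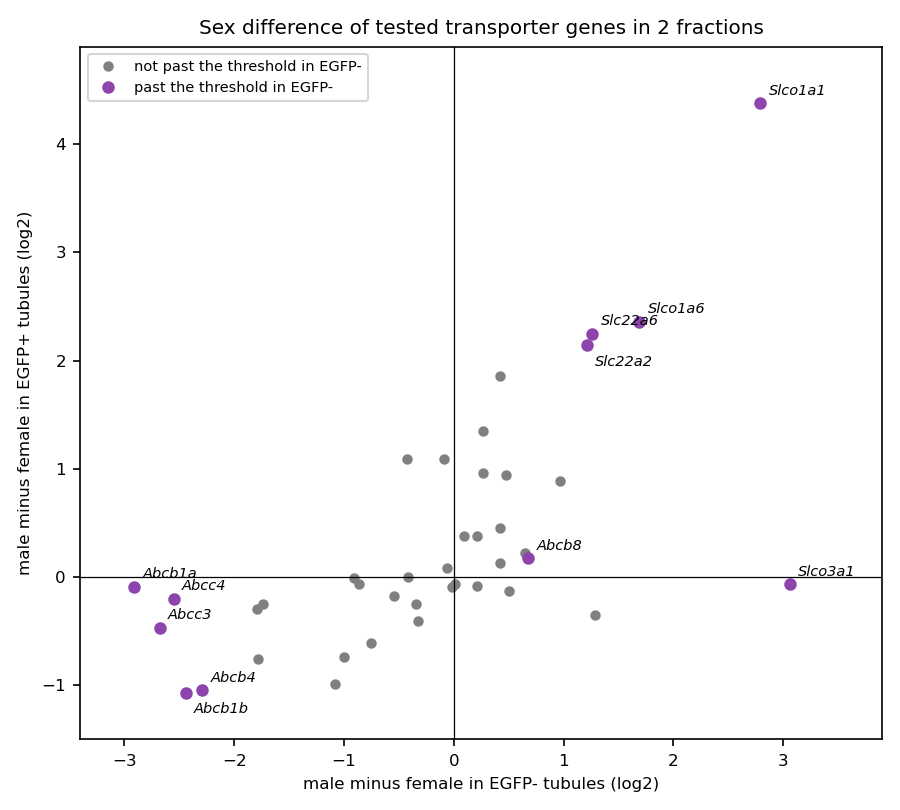
Male-minus-female difference of 41 of the tested transporter genes in EGFP- (horizontal axis, log2) and EGFP+ (vertical axis, log2); purple points passed the threshold in EGFP-. Slco3a1, Abcc4 and Abcb1a lie near 0 on the EGFP+ axis, and Slco1a1 is high on both.

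Genes that work with or regulate these transporters were also mostly lower in EGFP+. Of 26 tested partner genes, 19 were lower (73.1%) and 5 higher (19.2%) in EGFP+ than in EGFP-, with a median of -2.51. Over all genes tested, 25.9% were lower and 32.3% higher, with a median of 0.11. The largest deficits were those of the bile acid carriers Slc10a2 (-5.80 ± 0.34), Slc51a (-5.46 ± 0.64) and Slc51b (-5.44 ± 0.33), and of the pregnane X receptor Nr1i2, which was at least 22.4-fold lower and not well above background in EGFP+. Slc13a3, the sodium-dicarboxylate carrier that supplies the anion exchangers, differed by -5.39 ± 0.21. The regulator Hnf4a differed by -5.35 ± 0.31. The equilibrative nucleoside transporters Slc29a1 (1.99 ± 0.24) and Slc29a2 (1.22 ± 0.21) were higher in EGFP+. So were Ahr (0.98 ± 0.15), Slc2a9 (0.85 ± 0.19), a urate carrier, and Nfe2l2 (0.82 ± 0.11). Slc15a2, a peptide carrier, differed by -0.39 ± 0.21 (adjusted p = 0.135, or 0.00913 with the mouse as a block).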

How the data were processed

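Deposited scanner files of 12 one-colour arrays hold each spot's intensity after the background subtraction of Feature Extraction 9.5.3.1, per the file headers (design 014868, probe positions on mm8). The log2 intensity minus each array's 75th percentile was computed, with control and outlier spots left out. Genes carry current RefSeq symbols and are represented by their brightest tested probe. limma 3.58.1 (R 4.3.3) fitted 1 coefficient per fraction over 12 arrays, without a block. Sex was tested on 4 mouse means, on 4 mouse differences, and within fractions in 6 groups of 2. The fits in 6 groups, within fractions and within each sex, treat the fractions of a mouse as independent. The fraction fit and the fit on mouse means were run on simulated data. The simulated noise was independent between arrays, so that check cannot cover what the fractions of a mouse share. Fractions of a mouse share an animal, and their deviations correlated at 0.23 to 0.82. The mouse-blocked p is printed where it changed a call.

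Named were the members higher in EGFP+, the 10 largest deficits, those kept in EGFP+, up to 10 with a sex difference, and 16 fixed by role. The members and lists were chosen with earlier results of these data known. The fits within each sex, and of sex within EGFP+ and ALL, were added after seeing the data. "At least" folds set the dim group at the lowest signal well above background. Alternatives were normexp (offset 50), quantile normalization, median centring, other filters, probe means, mouse and slide blocks, and leaving out each mouse. The deposited value table was not used, and the number of arrays limits the precision. Results for some genes are not reported here.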

Additional observations from a re-analysis of the deposited data

Results flagged for a closer look

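Among 124 sets of 4 mice (1 gene in 1 fraction), 4 had a sample far from the others by the ratio of its gap to the whole range, where about 1 in 20 would by chance. Abcc10 in ALL was low in mouse 4 at -6.45, against -4.82 to -4.59 in the others (ratio 0.877), and was not well above background on that array. Slc22a5 in EGFP- was high in mouse 2 at 3.86, against 3.43 to 3.49 (ratio 0.849). Slco1a4 in EGFP- was low in mouse 3 at -6.92, against -4.29 to -3.79 (ratio 0.842). Slco4a1 in EGFP- was low in mouse 4 at -2.82, against -1.80 to -1.59 (ratio 0.833). The EGFP+ to EGFP- difference of Slco3a1 had opposite signs in females and males, and differed by -3.13 as male minus female (limma adjusted p = 0.0676).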

How the results depend on the processing

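Over all alternatives the members higher in EGFP+ than in EGFP- numbered 4 to 8 and those lower 22 to 30. With 1 mouse left out, higher members numbered 4 to 7 and lower ones 27 to 28 (against ALL, 4 to 6 and 26 to 28), higher and lower partner genes 5 and 17 to 19, members higher in ALL than in EGFP- 0 to 1, members higher in males 0 to 1 and lower 0, and members with a sex difference in EGFP- 3 to 14. With the replicate block (mouse), the slide block, quantile normalization or median centring, 1 member was higher in ALL than in EGFP-, against 0. Members higher in males numbered 7 with median centring, 1 with no filter on dim probes, 14 with normexp and 2 with quantile normalization, against 4. Those lower in males numbered 7 with median centring and 0 with no filter, against 4. Members with a sex difference in EGFP- numbered 5 with normexp, against 11. Within males the Slco3a1 difference turned to -1.05. The cause was not tested. Of the checks of single genes, 561 kept their call, 18 gained and 81 lost it, and 1 reversed. The mouse block changed no other call among the named genes than those printed beside the results. The median of all genes moved from 0.11 to 0.26 with normexp or median centring and 0.16 with quantile normalization. The 7 members whose EGFP+ deficits missed the threshold with normexp were well above background on 0 to 2 EGFP+ arrays. Abcc6 (0 EGFP+ arrays) and Abcb1b (1) were also dim there and stayed past it. Why the calls of the 7 were lost was not tested.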

Other observations

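Relatives of the members that the array lists under older names were measured too, and 5 of these 6 were lower in EGFP+ than in EGFP- (background 25.9%). Slc22a23, an SLC22 gene with no settled substrate, was higher: its EGFP+ levels were 4.88, 4.82, 5.27 and 4.84 and its EGFP- levels 4.26, 4.17, 4.39 and 3.98, a difference of 0.75 ± 0.15 (1.68-fold, limma adjusted p = 0.000863). Slc22a29 and Slc22a30, which lie in the organic anion carrier cluster of chromosome 19, differed between the sexes in opposite directions. Slc22a30 was higher in males by 3.27 ± 0.25 over the mean of the fractions (9.67-fold, adjusted p = 0.0216). Slc22a29 was lower in males by a difference of -2.97 ± 0.19 (7.86-fold, adjusted p = 0.0164). Slc22a22, known as a prostaglandin-specific organic anion transporter, was higher in males by 1.86 ± 0.17 (3.63-fold, adjusted p = 0.03).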
